A study of Mus musculus with 6 samples.

Results

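Histone genes were followed by RNA-seq in sorted neural stem cells and progenitors of the subgranular zone (SGZ), where the dentate gyrus makes new neurons. Members were the rows of the deposited table whose symbols are those of histone genes, without pseudogenes marked -ps, and whose normalized count averaged at least 10 over the 6 libraries. The symbols matched 81 genes, and 43 of them, of 55471 genes in the table, reached that mean. They comprised 32 replication-dependent genes of the histone clusters and 11 genes outside the clusters. The rule used symbols and mean levels and no difference between genotypes, though it was set with earlier results of these data known.

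The comparison was between 3 libraries of 3xTg;Nestin-YFP mice and 3 of NTG;Nestin-YFP mice, all at postnatal day 35. As a model of Alzheimer disease, 3xTg mice carry mutant human APP and tau transgenes and a mutant presenilin 1, and NTG mice carry none of these. Mice of both groups carried a tamoxifen-inducible Cre driven by Nestin promoter and enhancer elements and a YFP reporter at the Rosa26 locus, and received tamoxifen, with the tissue taken 10 days after the last dose. Live cells with YFP were sorted by their lack of propidium iodide stain, so that both Nestin-expressing cells and what they gave rise to within those days can be among them. Both groups carry the strain label B6129SF2/J, but NTG mice were kept as a colony of their own, and what comes from the transgenes and what from the colony cannot be told apart. Males and females were used, and the number of animals behind each library is not given. The replicates are called biological in the methods, with no word on litters or dissections.

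Libraries held 53063475 to 81800375 assigned reads in 3xTg and 32731794 to 42576455 in NTG, so that every 3xTg library was deeper than every NTG library. Of 15 stem and progenitor markers, 14 were tested and none was at 0. Limma and edgeR called none of them and DESeq2 1, lower. Their log2 fold changes were above 0 in 6 and below 0 in 8, with a median of -0.07. At an unadjusted limma p under 0.05, 3 were higher and 3 lower in 3xTg, against 12.1% and 11.4% of all tested genes. Without 3xTg replicate 1 limma called 1 higher and 3 lower, against 5.14% and 5.74% of all tested genes. Nes averaged a normalized count of 826 in 3xTg and 925 in NTG, and Hopx one of 11444 in 3xTg and 14859.9 in NTG. Transcripts of other cells were also present, and the myelin gene Mbp averaged 81634 in 3xTg and 71120.1 in NTG. Of 10 oligodendrocyte lineage markers, Mbp among them, 4 had folds above 0 and 6 below. Limma called 1 of them lower, against 1.67% of all tested genes. Their summed normalized count was 314982 in NTG replicate 3, against 602618 and 666740 in the other NTG libraries and 599258 to 638048 in 3xTg. All 12 endothelial markers had folds below 0, and limma called 4 of them lower, against 1.67% of all tested genes, and DESeq2 10, against 3.94%. Leaving out 1 library gave 0 (without 3xTg replicate 2) to 9 (without 3xTg replicate 1, a fit that called 5.74% of all genes lower). Their summed normalized count was 4375 to 7494 in 3xTg and 9475 to 11599.9 in NTG, with none at 0 (the lowest, Cdh5, averaged 129). The 9 tested markers of mural cells summed to 18204 to 30717 in 3xTg and 33045 to 42129.5 in NTG. Limma called 2 of them lower, against 1.67% of all tested genes. When 1 library was left out it called 0 (without 3xTg replicate 2 or 3, or NTG replicate 1) to 8 (without 3xTg replicate 1, a fit that called 5.74% of all genes lower). The part of these cells in the differences between histone genes below was not tested. In bulk RNA, fewer cells of a type and less RNA per cell cannot be told apart.

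Nucleosomes are built from the core histones H2A, H2B, H3 and H4, with the linker histone H1 on the DNA between them. Most are made from clusters of small intronless genes, called HIST1, HIST2 and HIST3, which are transcribed in S phase when new DNA must be packaged. Their messages end in a conserved stem-loop, bound by the protein Slbp, in place of a poly(A) tail, and are degraded when DNA synthesis stops. Variant histones come from single genes outside the clusters, have ordinary poly(A) tails and are made throughout the cell cycle. Many clustered genes can also give a longer, polyadenylated message when transcription reads through the stem-loop, as cells leave the cycle or differentiate. The cDNA here was primed on poly(A) tails, so that messages that end at the stem-loop are poorly captured and the counts are not a measure of total histone mRNA.

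The stem-loop is shown because messages that end at it lack the poly(A) tail on which the cDNA was primed. Capture itself was not tested. The stem-loop was found in GENCODE M21 transcripts of 46 of the 81 genes, 29 of the 43 members and 27 of the 32 clustered members. It spans 16 bases, with the loop in capitals between the arms that pair. The most frequent forms among members, and those of single members, were the following, each 5′ to 3′ and named by its genes.
H1f2, H2bu2, H2bc6, H3c4 and others (25 genes, 16 members): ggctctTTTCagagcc
H4c3, H4c4, H4c8, H4c18, H4f16 and others (7 genes, 5 members): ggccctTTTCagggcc
H2bc3, H3c6 and others (6 genes, 2 members): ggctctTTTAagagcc
H4c9 and H4c14: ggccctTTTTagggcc
H4c11 and H4c2 (1 member, H4c11): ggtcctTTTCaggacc
H2ax: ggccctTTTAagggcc
H3c8: ggctctTCTTagagcc
H2ac20: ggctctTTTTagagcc
The most frequent form occurred in H1, H2A, H2B and H3 genes, and the next most frequent in H4 genes alone.

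Levels of the clustered genes were uneven. H2bc4 alone held 28.7% of the summed normalized count of the 32 clustered members, H2bc4 and the linker histone gene H1f2 together 57.2%, and with the H2B genes H2bu2 and H2bc21 73.3%. Per kilobase of annotated exon, H2bc4 had a normalized count of 2184, H1f2 1606 and H2bu2 1239, against 250.1 for H2bc21. Annotated ends of the 66 clustered genes were set beside these levels. In 21 genes the gene model went on for at least 100 bases after the stem-loop. Of these 17 were members, 9 averaged at least 100, and they held 59.1% of the clustered sum. In 23 genes the model ended within 100 bases, of which 10 were members, 1 averaged at least 100 (H4c8), and they held 3.90%. The other 22 had no stem-loop in the model, 5 of them members, with 37.0% of the sum, nearly all of it from H2bc4 and H2bc21. The median over all genes of a kind, members or not, was 66.1 per kilobase with the long end, 13.1 with the short end and 7.81 without a stem-loop. The share of 100-base windows found in no other gene, which limits the reads that can be assigned, also varied. With the short end it was 7.3% in H2ac23 and 19.3% in H4c18, but 93.4% in H2bc14. With the long end it was 94.9% in H1f2 and 95.1% in H2bu2, but 38.4% in H3c15. The part of this in the medians was not tested. The limit of 100 bases was chosen after the data were seen, and gene models that stop at the coding end cannot show a stem-loop.

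**Figure D1:**
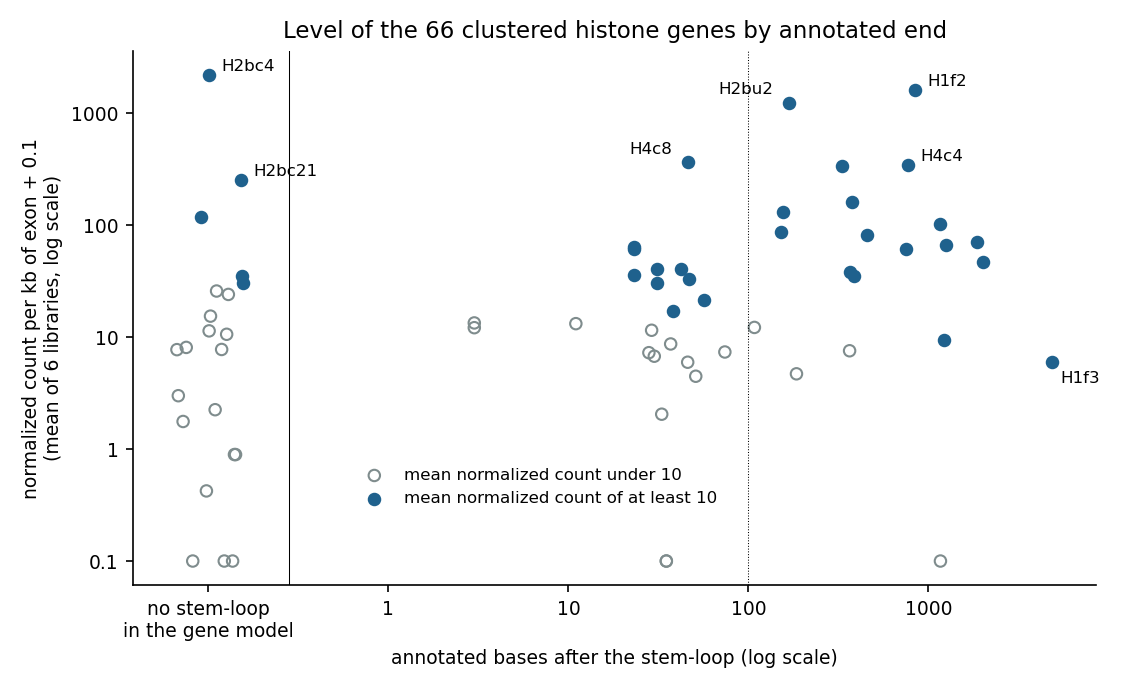
Mean normalized count per kilobase of exon over 6 libraries (plus 0.1, log scale) of each of the 66 clustered histone genes, by the annotated bases after the stem-loop (log scale), with genes without a stem-loop at the left, spread sideways for visibility only. Filled points are the 32 members, and 17 of them lie right of the dotted line at 100 bases, with H1f2 and H2bu2 at the top. H2bc4 and H2bc21 lie among the genes without a stem-loop.

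Of the 38 genes under the mean of 10, 34 were clustered and 4 were not. No reads were assigned to 7 of them. For 5 of those 7 (H2ac18, H2ac19, H2bc18, H3c13 and H3c14, all of HIST2) not one 100-base window of the transcripts was unique to the gene, so that the count of 0 does not show that they are silent. The other 2 were H2ac1, a testis gene of HIST1, and H1f7, the linker histone of sperm precursors. A further 5 averaged above 0 but under 1, and 26 between 1 and 10. Just inside the limit lay H2ac20 with a mean of 11.1, and just outside it H3c7 with 9.38. Of the 43 members, 2 had a mean under 10 in one group, H2bc22 in 3xTg and H2ac20 in NTG. Because the genes are near copies, reads can be shared. Only coding sequences of equal length were compared, and the clustered members H2ac20 (H2A) and H2bc22 (H2B) are in none of the following pairs. Identity was 98.2% to 99.5% among 10 H2A pairs of clustered members and 84.8% to 99.0% among 28 H2B pairs. Fewer than 50% of windows were unique in 7 clustered members, and at least 95% in 6. How multiply mapped reads and strand were treated in counting is not given in the sources used here, and 14 members overlap exons of another gene.

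Over all 18664 genes with a mean of at least 10, limma on log2(normalized count + 1) called 2.8% of genes, of which 210 (1.13% of the tested) were higher and 312 (1.67%) lower in 3xTg cells. A call needed an adjusted p under 0.05 and a log2 fold change larger than 0.5 in size, and all fold changes are given as 3xTg over NTG. Among the 32 clustered members 1 was higher, 1 was lower and 30 did not pass. Log2 fold changes were above 0 in 12 and below 0 in 20, with a median of -0.08, against 0.01 over all tested genes. All 3 3xTg libraries lay above all NTG libraries for 2 members and below them for 6, against 15.1% and 12.6% of all tested genes. Both called genes encode H2B. H2bu2 was lower and H2bc21 higher in 3xTg, so that the H2B genes moved in both directions.

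**Figure D2:**
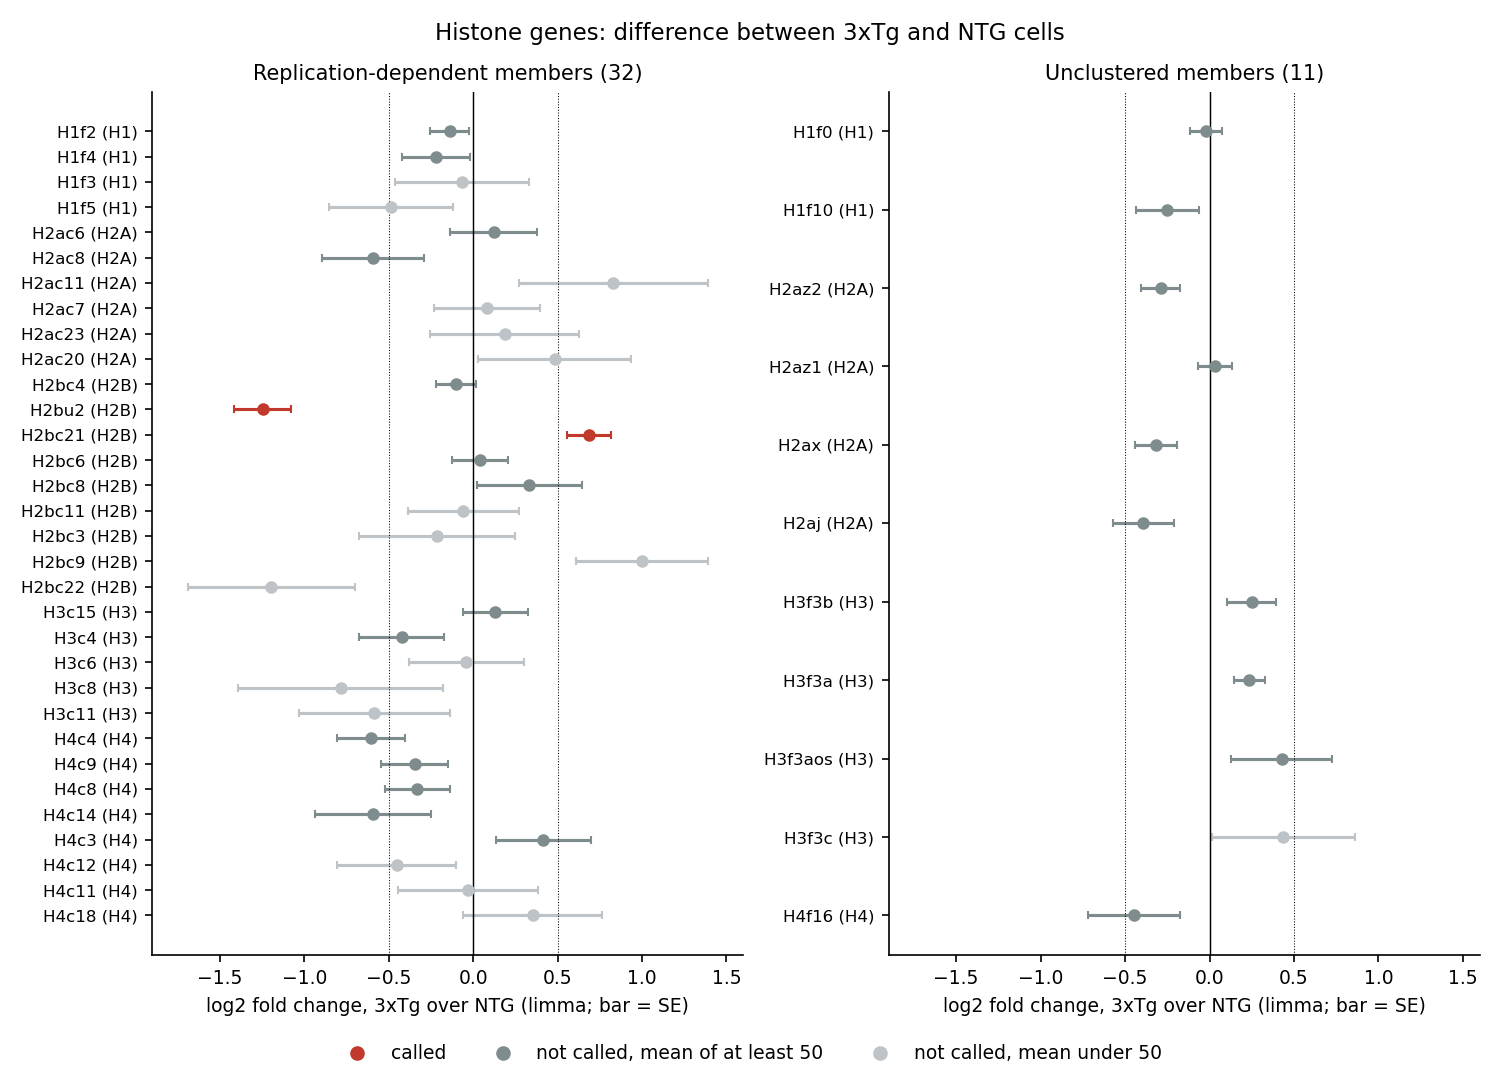
Log2 fold change of each member, 3xTg over NTG, from limma (points) with its standard error (bars), for the 32 clustered members at the left and the 11 unclustered members at the right, ordered by histone class and mean. Dotted lines mark the 0.5 threshold. The called H2bu2 (-1.25) and H2bc21 (0.69) are in red, and members with a mean under 50, in light grey, have the widest bars.

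H2bu2 is the H2B gene of the small HIST3 cluster (GRCm38 chromosome 11, 58948920 to 58949533, plus strand, a gene model without introns). Its normalized counts were 527, 350.4 and 487 in the 3xTg libraries, against 953, 1143 and 1106 in the NTG libraries. The highest 3xTg library stood well below the lowest NTG library, so that the groups did not overlap. Means were 455 ± 92.5 in 3xTg and 1067 ± 101 in NTG (SD, n = 3 each). The log2 fold change was -1.25 ± 0.17 (SE), or 0.42 times the NTG level, with a limma adjusted p of 0.00472. H2bu2 was called lower under each of the 18 other settings tried, with log2 fold changes of -1.36 to -1.05. The smallest size came with removal of the trend with GC content within each library, and edgeR gave -1.24 with an adjusted p of 0.00449. Of its 100-base windows 95.1% were unique, the rest being shared with the neighbouring pseudogene H2bu1-ps, whose normalized count averaged 19.8 in 3xTg and 18.6 in NTG.

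H2bc21, an H2B gene of HIST2 known in mouse as H2be and studied in olfactory sensory neurons, lies on chromosome 3 (96221119 to 96223738, plus strand). Its normalized counts were 909, 746 and 773 in 3xTg, against 495.0, 512 and 495.5 in NTG. NTG libraries were close to each other, and each 3xTg library lay above them. Means were 809.6 ± 87.3 in 3xTg and 501 ± 9.61 in NTG (SD, n = 3 each), a log2 fold change of 0.69 ± 0.13 (SE) with a limma adjusted p of 0.0285. The difference was past both thresholds in edgeR (0.69, adjusted p = 0.0278) and in DESeq2 (0.68, adjusted p = 0.00027). With the GC trend removed it was 0.55 with a limma adjusted p of 0.0659 and was not called. It was also not called when 3xTg replicate 2 (adjusted p = 0.0753), 3xTg replicate 3 (adjusted p = 0.107), NTG replicate 1 (adjusted p = 0.105) or NTG replicate 2 (adjusted p = 0.071) was left out of the limma fit, though its size stayed between 0.68 and 0.74. All its 100-base windows were unique. With 3 libraries a group, an exact permutation test of 1 gene allows no two-sided p under 0.1, the value of both genes.

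**Figure D3:**
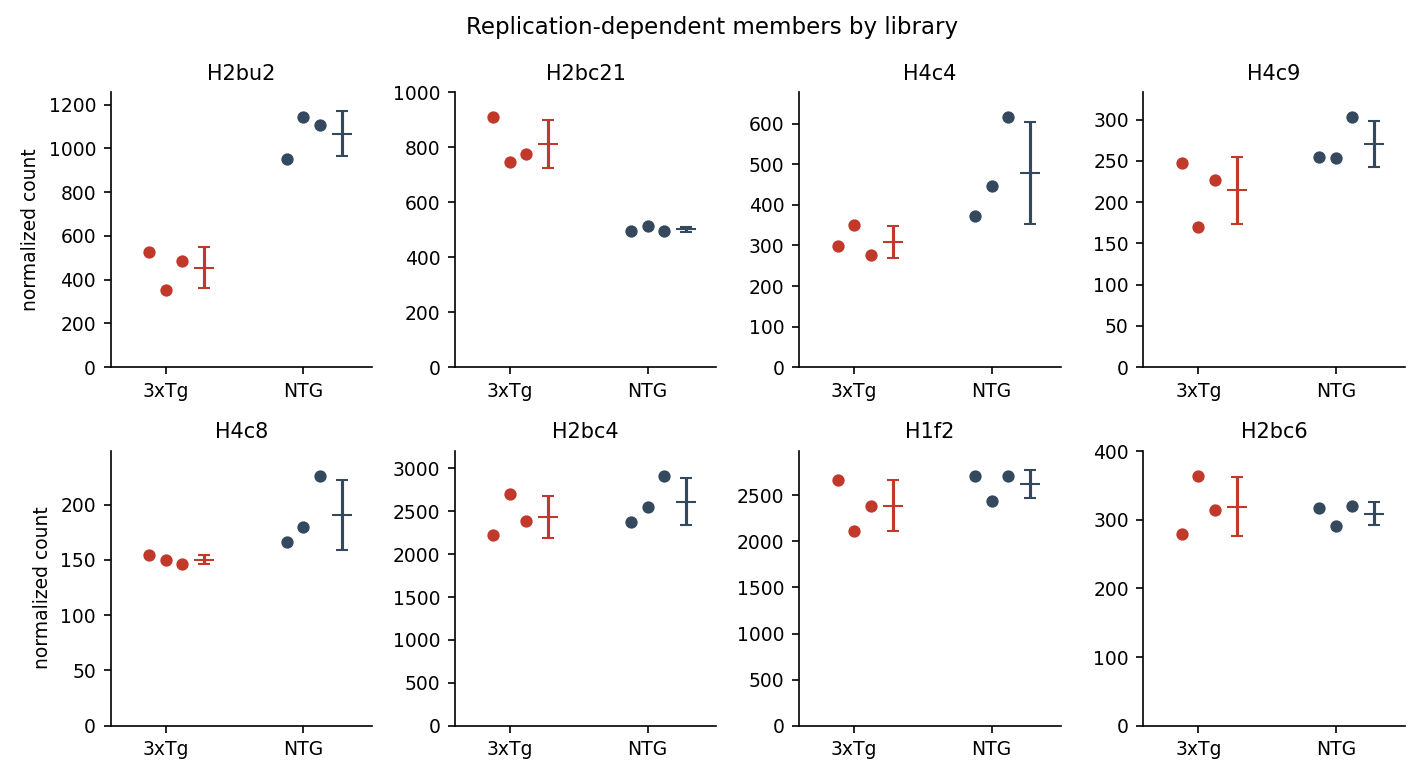
Normalized counts of 8 clustered members in each library (points), with the mean and SD beside them, 3xTg in red at the left and NTG in grey at the right of each panel. 3xTg lies below NTG without overlap in H2bu2, H4c4, H4c9 and H4c8 and above it in H2bc21, and the groups overlap in H2bc4, H1f2 and H2bc6. Of these, H2bu2 and H2bc21 were called.

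**Figure D4:**
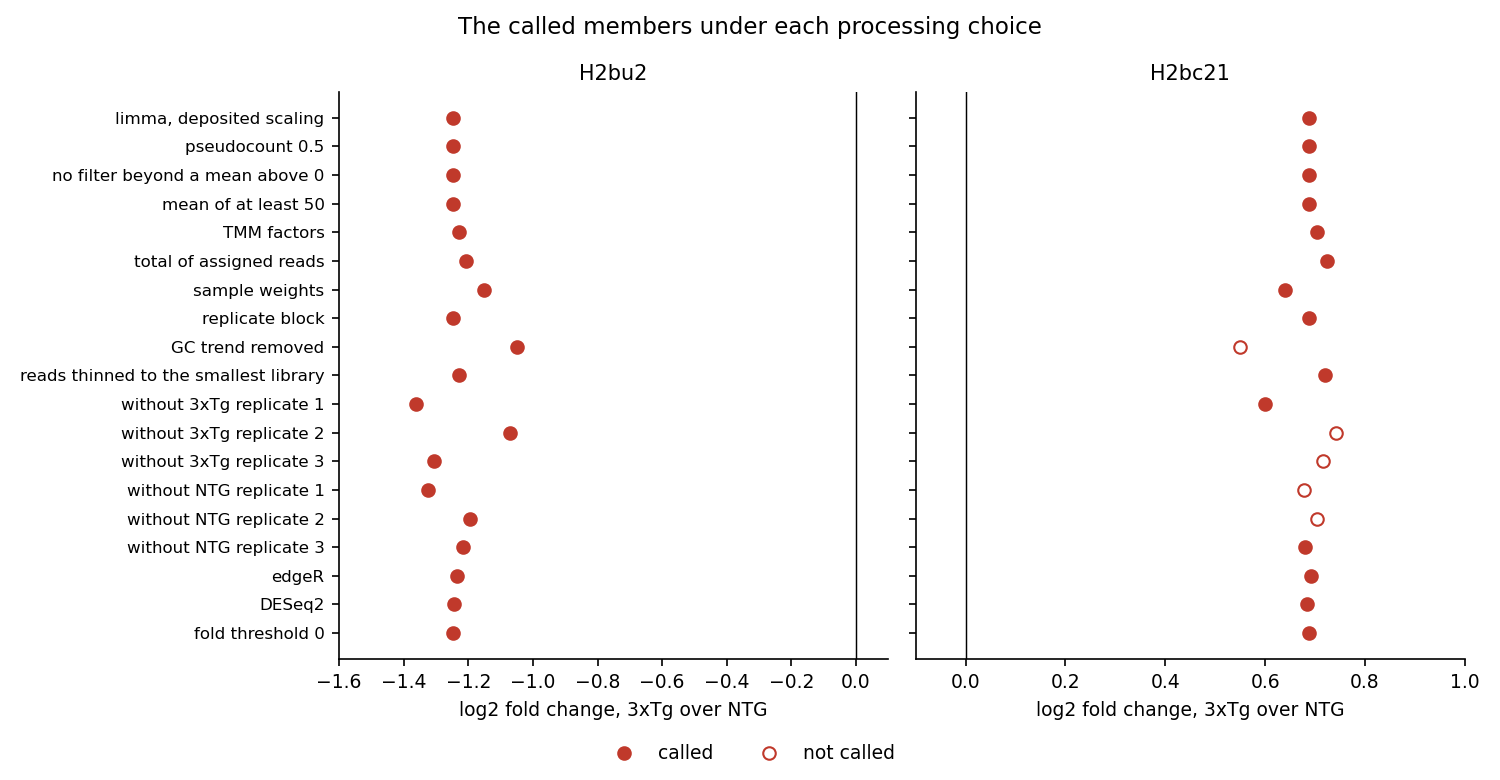
Log2 fold change, 3xTg over NTG, of the called members H2bu2 and H2bc21 under limma with the deposited scaling (top row) and the 18 other settings. Filled points are calls, and open points are fits in which the gene did not pass. H2bu2 passes in all of them, between -1.36 and -1.05, and H2bc21 is open in 5 of 18.

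Promoters of both genes are shown because the 2 H2B genes moved in opposite directions. Sequences are from RefSeq (GRCm38.p6) and run from 250 bases before to 50 bases after the start of transcription. Capitals mark the CCAAT box (CCAAT), the TATA box (TATAAA) and the octamer (ATTTGCAT, the element of H2B promoters that Oct1 binds), each searched on both strands, with no capitals of different motifs overlapping. The table has no entry for H2bc21 itself. The start of H2bc21 lies 239 bases from that of the H2A gene H2ac20, on the opposite strand, and the window of H2ac20 therefore also holds the start of H2bc21.
H2bu2, chr11:58948661-58948960, plus strand: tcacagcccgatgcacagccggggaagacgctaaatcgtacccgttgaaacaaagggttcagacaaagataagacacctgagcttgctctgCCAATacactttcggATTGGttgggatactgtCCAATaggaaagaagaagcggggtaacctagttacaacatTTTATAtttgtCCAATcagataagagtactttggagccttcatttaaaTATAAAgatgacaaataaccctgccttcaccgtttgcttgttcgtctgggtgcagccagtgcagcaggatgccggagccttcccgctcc
H2ac20 and H2bc21, chr3:96220831-96221130, minus strand: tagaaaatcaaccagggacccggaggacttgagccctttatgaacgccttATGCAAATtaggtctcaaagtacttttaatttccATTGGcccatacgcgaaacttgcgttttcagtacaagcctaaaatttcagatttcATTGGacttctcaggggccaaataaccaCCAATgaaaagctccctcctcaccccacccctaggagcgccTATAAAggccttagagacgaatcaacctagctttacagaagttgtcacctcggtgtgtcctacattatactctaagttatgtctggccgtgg
The H2bu2 window held 4 CCAAT and 2 TATA matches and no octamer, and the window between H2ac20 and H2bc21 held 3 CCAAT matches, 1 TATA match and 1 octamer. CCAAT was in 83.3% of the 30 promoters of clustered members in the table, 55.6% of the 9 of unclustered members and 37.4% of all 32851 promoters. TATAAA was in 60% of promoters of clustered members, 11.1% of those of unclustered members and 13.6% of all. The octamer was in 20% of clustered, 11.1% of unclustered and 1.735% of all promoters, and in 37.5% of the 8 promoters of clustered H2B members. A match is only a run of letters in the window.

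H2ac20 and H2bc21 form 1 of 13 pairs of H2A and H2B genes that start within 176 to 306 bases of each other on opposite strands. Normalized counts of H2ac20 were 18.8, 10.7 and 9.66 in 3xTg, against 12.9, 8.41 and 5.92 in NTG, with a log2 fold change of 0.48 ± 0.45 (SE) and a limma adjusted p of 0.54. It lay near the filter, and its groups overlapped. H2ac6, the partner of H2bc4, had a log2 fold change of 0.12 ± 0.26 and H2bc4 one of -0.10 ± 0.12. H2ac8 had -0.59 ± 0.30 and its partner H2bc8 0.33 ± 0.31, and H2ac11 had 0.83 ± 0.56 and its partner H2bc11 -0.06 ± 0.33, none of them called.

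The other H2B genes were not called. H2bc4 had normalized counts of 2221, 2704 and 2384 in 3xTg, against 2369.6, 2552 and 2917 in NTG, a log2 fold change of -0.10 ± 0.12, and -0.22 with the GC trend removed. H2bc6 had 279, 364 and 314 in 3xTg and 317, 290.3 and 319 in NTG, a log2 fold change of 0.04 ± 0.16. The groups overlapped in both genes. H2bc9 and H2bc22, both with means under 20, had the largest folds in size among the H2B genes that were not called. H2bc9 had 25.4, 20.8 and 17.1 in 3xTg, against 9.36, 14.0 and 7.40 in NTG, a log2 fold change of 0.999 ± 0.39 with a limma adjusted p of 0.168. H2bc22 had 4.71, 5.06 and 10.4 in 3xTg, against 11.7, 28.05 and 11.8 in NTG, a log2 fold change of -1.19 ± 0.50 with a limma adjusted p of 0.187. In neither did the groups overlap, but their standard errors were 0.39 and 0.50, against 0.12 for H2bc4.

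The 8 H4 genes encode the same core histone and none was called by limma or edgeR, with 6 log2 fold changes below 0 and a median of -0.34. At an unadjusted limma p under 0.05, 1 was lower, against 11.4% of all tested genes. H4c4 (chromosome 13, 23581598 to 23582735, plus strand, all windows unique) had normalized counts of 299, 352 and 276 in 3xTg, against 372, 446 and 617 in NTG. Every 3xTg library lay below every NTG library, and NTG replicate 3 lay above the other NTG libraries. Its log2 fold change was -0.61 ± 0.20 (SE) with a limma adjusted p of 0.125, and DESeq2 called it lower (-0.64, adjusted p = 0.0392). H4c9 had 248, 169 and 227 in 3xTg and 255, 254 and 303 in NTG, a log2 fold change of -0.35 ± 0.20. H4c8 had 155, 149.6 and 146 in 3xTg and 166, 179.5 and 226 in NTG, a log2 fold change of -0.33 ± 0.19, and -0.12 with the GC trend removed. Unique windows made up 84.9% in H4c9 and 61.5% in H4c8. The groups of H4c9 and H4c8 did not overlap either. H4c14 had 83.9, 57.4 and 112 in 3xTg and 94.8, 101 and 197 in NTG, with overlap, and H4c3 went the other way, with 58.4, 88.9 and 82.5 in 3xTg and 70.2, 46.3 and 54.7 in NTG. Summed over the 8 genes, the normalized count was 912, 879 and 944 in 3xTg, against 1040.3, 1097 and 1498 in NTG, a ratio of 0.75. With the GC trend removed the median over the H4 genes was -0.11. Transcripts of the clustered members had a median GC content of 53.9%, against 49.5% over the tested genes.

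No clustered H1, H2A or H3 gene was called by limma, edgeR or DESeq2, and none had an unadjusted p under 0.05 (0 of 15 in limma, against 23.5% of all tested genes). All 4 H1 genes had log2 fold changes below 0, from -0.49 to -0.06. H1f2, which encodes a somatic linker histone, had normalized counts of 2664, 2117 and 2383 in 3xTg, against 2715, 2443 and 2707 in NTG, a log2 fold change of -0.14 ± 0.12, and 0.007 with the GC trend removed. H1f4 had 200.7, 151 and 197 in 3xTg and 239.9, 178 and 222 in NTG, with ranges that overlapped. H1f5 had 17.9, 15.2 and 21.6 in 3xTg and 17.6, 29.5 and 32.5 in NTG, a log2 fold change of -0.49 ± 0.36, and H1f3 one of -0.06 ± 0.40. Of 6 H2A genes 5 had folds above 0, with a median of 0.15 over the 6 (0.43 with the GC trend removed). Only H2ac6 and H2ac8 reached a minimum mean of 50, with a median of -0.24. The highest of the 6 in level, H2ac6, had 89.5, 159.7 and 114 in 3xTg and 106, 95.4 and 124 in NTG. H2ac8, the one with a fold below 0, had 52.8, 37.1 and 55.02 in 3xTg and 53.8, 72.9 and 96.1 in NTG. H2ac11, with 16.02, 25.3 and 87.0 in 3xTg and 18.7, 23.8 and 13.3 in NTG, had its one high value in 3xTg replicate 3. Only 23.8% of the windows of H2ac11 were unique. Of 5 H3 genes 4 had folds below 0, with a median of -0.42 over the 5 (-0.20 with the GC trend removed). Only H3c15 and H3c4 reached a minimum mean of 50, with a median of -0.145. H3c15 of HIST2 had 154, 180.0 and 179.9 in 3xTg and 142, 151 and 176 in NTG, a log2 fold change of 0.13 ± 0.19, and 0.39 with the GC trend removed. Only 38.4% of the windows of H3c15 were unique. H3c4 had 53.7, 66.9 and 75.8 in 3xTg and 77.2, 84.1 and 102 in NTG, without overlap, a log2 fold change of -0.42 ± 0.25 and a limma adjusted p of 0.33. H3c6 had 27.3, 32.1 and 33.5 in 3xTg and 41.0, 21.04 and 37.0 in NTG, and its fold of -0.04 was above 0 with the GC trend removed. H3c8 had a log2 fold change of -0.78 ± 0.61, with 8.48, 6.19 and 22.3 in 3xTg and 18.7, 40.7 and 8.87 in NTG.

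Summed over the 32 clustered members, the normalized count was 8362, 8108 and 8377 in 3xTg, against 8898, 8968 and 10082.5 in NTG. Means were 8282 ± 151 in 3xTg and 9316 ± 665 in NTG (SD, n = 3 each), a ratio of 0.89, and the groups did not overlap. Scaled by the total of assigned reads, the ratio was 0.91 and the groups overlapped, with 7989, 8418 and 8789 in 3xTg and 8531, 9109.9 and 9948 in NTG. As a share of assigned reads, the clustered members took 0.0167% to 0.0184% in 3xTg and 0.0179% to 0.0208% in NTG. By cluster, HIST1 (27 members on chromosome 13) had a ratio of 0.91 and no called gene. HIST2 (4 members on chromosome 3) summed to 1165, 994 and 1075 in 3xTg, against 744, 773 and 874 in NTG, a ratio of 1.35. Without H2bc21 the HIST2 sums were 256, 248 and 302 in 3xTg and 249, 261 and 379 in NTG, which overlap, so that the higher sum of HIST2 rested on 1 gene. HIST3 had H2bu2 as its one member, so that its ratio of 0.43 is that of 1 gene. H2aw, an H2A gene of HIST3 that the symbol rule left out, went the other way, with means of 950 in 3xTg and 576 in NTG.

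None of the 11 unclustered members was called by limma, by edgeR (2.84% of all tested genes called) or by DESeq2 (7.14%), although at an unadjusted limma p under 0.05 there were 1 with a higher and 2 with a lower level in 3xTg, against 12.1% and 11.4% of all tested genes. Log2 fold changes lay between -0.45 and 0.44, with a median of -0.02. Per kilobase of exon the order of the normalized counts was H3f3b 6755, H1f0 5153, H2az2 4090.4, H3f3a 2976, H2az1 2734, H2ax 1726, H2aj 862, H1f10 543, H3f3c 46.6, H3f3aos 23.5 and H4f16 21.6. The first 5 thus lay above every clustered member, and the last 3 among the lower clustered members. Their neighbours in that order were not tested against each other. Summed, the 11 genes had normalized counts of 55649, 61188 and 60077 in 3xTg and 54791, 57518 and 55392.5 in NTG, with overlap and a ratio of 1.05.

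**Figure D5:**
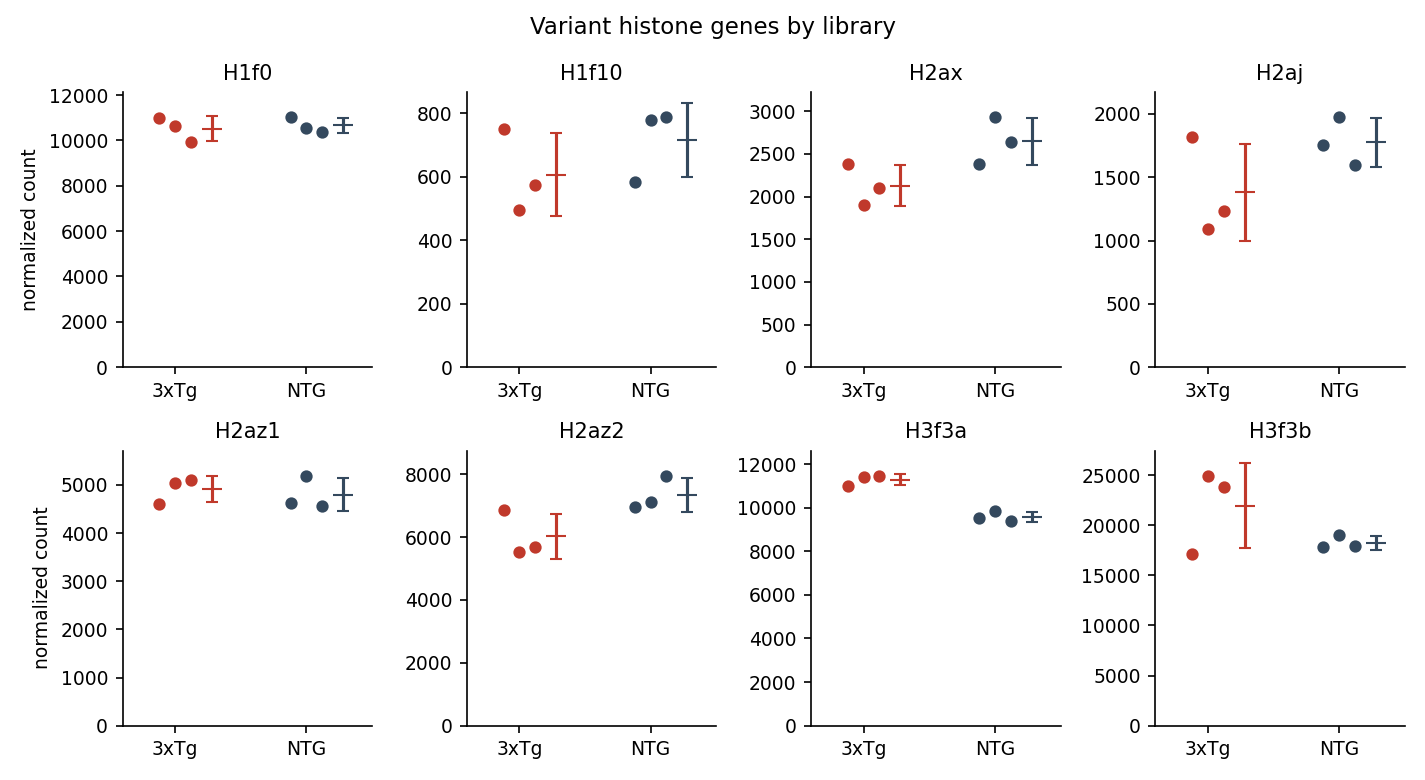
Normalized counts of the 8 variant histone genes in each library (points), with the mean and SD beside them, 3xTg in red at the left and NTG in grey at the right of each panel. Groups do not overlap in H2az2, with 3xTg lower, and H3f3a, with 3xTg higher, and none of the 8 was called. In H2aj and H3f3b, 3xTg replicate 1 (the first red point) lies with the NTG libraries.

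H3f3a and H3f3b both encode H3.3, the H3 variant placed in active genes and at telomeres outside S phase, from coding sequences that were only 76.9% identical in bases. H3f3a had normalized counts of 10985.5, 11382 and 11473 in 3xTg, against 9519, 9827 and 9376 in NTG. The groups did not overlap, and the spread within each was small. Its log2 fold change was 0.24 ± 0.09 (SE) with a limma adjusted p of 0.167, and 0.04 (adjusted p = 0.846) with the GC trend removed. H3f3b had 17101, 24966 and 23833.5 in 3xTg, against 17798, 19001 and 17915 in NTG. The first 3xTg replicate was below all NTG libraries and the other two above them, and the log2 fold change was 0.25 ± 0.15 with a limma adjusted p of 0.325. Without 3xTg replicate 1 the log2 fold change of H3f3b was 0.42 with an adjusted p of 0.0306, still under the size threshold, and with the GC trend removed it was 0.06. The antisense RNA H3f3aos had 108, 68.6 and 69.9 in 3xTg and 44.5, 61.7 and 76.9 in NTG. Of its exon bases 5.3% overlap H3f3a, and only there can reads of the 2 genes not be told apart without strand. The processed pseudogene H3f3c, 99.0% identical to H3f3a in its coding part, had 14.1, 24.7 and 27.5 in 3xTg and 21.1, 9.82 and 17.7 in NTG, and 43.3% of its windows were unique.

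No H2A variant was called by limma, edgeR or DESeq2 with equal weight to all libraries. H2az1 and H2az2 encode forms of H2A.Z, which sits beside start sites of genes, and shared 79.1% of coding bases. H2az1 had 4594, 5037 and 5108 in 3xTg and 4633, 5194 and 4570.2 in NTG, a log2 fold change of 0.03 ± 0.10. H2az2 had 6852, 5527 and 5691 in 3xTg, against 6943, 7109 and 7956 in NTG, a log2 fold change of -0.29 ± 0.11 with a limma adjusted p of 0.173. The groups of H2az2 did not overlap, by a narrow gap between 3xTg replicate 1 and NTG replicate 1, while those of H2az1 did. H2ax encodes the variant that is phosphorylated around DNA breaks, and its message carries both a stem-loop and 822 annotated bases beyond it. It had 2387, 1901 and 2098 in 3xTg and 2379, 2932 and 2634 in NTG, a log2 fold change of -0.32 ± 0.12 with a limma adjusted p of 0.168. With the GC trend removed it was -0.01 (adjusted p = 0.956), the GC content of the transcript being 62.3%. H2aj, whose product H2A.J is known from senescent human cells, had 1817, 1095 and 1234 in 3xTg and 1759, 1976 and 1594 in NTG, a log2 fold change of -0.39 ± 0.18 with a limma adjusted p of 0.224. One 3xTg library lay among the NTG libraries and the other two below all of them. Without that library, replicate 1, limma called H2aj lower (-0.61, adjusted p = 0.024), as it did with sample weights (-0.53, adjusted p = 0.0119).

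The linker variants and H4f16 were likewise not called. H1f0, the linker histone of resting and differentiated cells, had 10975, 10652 and 9916 in 3xTg and 11031, 10568 and 10392 in NTG, a log2 fold change of -0.02 ± 0.10. Its groups overlapped, and its sign changed with the scaling. H1f10 had 750.0, 494 and 575 in 3xTg and 583, 778 and 788 in NTG, a log2 fold change of -0.25 ± 0.19, and 0.20 with the GC trend removed, its transcript having a GC content of 71.3%. H4f16, a lone H4 gene on chromosome 6 with a stem-loop and 2445 annotated bases after it, had 64.1, 41.6 and 51.3 in 3xTg and 80.7, 60.3 and 72.5 in NTG, a log2 fold change of -0.45 ± 0.27 with a limma adjusted p of 0.341.

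Genes that serve histones were counted from lists. Of 25 tested factors of histone gene transcription and 3′ end processing none was called by limma, edgeR or DESeq2, with a median log2 fold change of 0.15. At an unadjusted limma p under 0.05, 3 were higher and 1 lower, against 12.1% and 11.4% of all tested genes. Slbp, which binds the stem-loop, had normalized counts of 1259.7, 1690.2 and 1552 in 3xTg, against 1071, 1329 and 1028 in NTG, a log2 fold change of 0.39 ± 0.15 with a limma adjusted p of 0.158. The groups overlapped. Npat, the coactivator of clustered histone genes, averaged 1782 ± 210.2 in 3xTg and 1367 ± 365 in NTG, a log2 fold change of 0.41 ± 0.19 with a limma adjusted p of 0.22. Of 54 genes of DNA replication and S phase none was called by limma or edgeR and 1, higher, by DESeq2, which called 7.14% of all tested genes. At an unadjusted limma p under 0.05, 9 had a higher and 3 a lower level, against 12.1% and 11.4% of all tested genes, and the median was 0.25. Leaving out 1 library moved the 9 to between 1 (without 3xTg replicate 2) and 28 (without 3xTg replicate 1). Pcna, the sliding clamp of replication, had a log2 fold change of 0.22 ± 0.13, and Mcm2, a subunit of the replicative helicase, one of 0.23 ± 0.14. Without 3xTg replicate 1, 6 of the 54 were called higher and none lower, against 5.14% of all tested genes called higher in that fit.

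Of 38 histone chaperones and deposition factors limma called 1, lower, against 2.8% of all tested genes called, with a median of 0.08, and DESeq2 called 2 higher and 1 lower. The limma call was Supt16, whose product is a subunit of the chaperone FACT, with 996, 809 and 710.0 in 3xTg, against 2021, 1820.3 and 1537 in NTG. The highest 3xTg library lay well below the lowest NTG library, the log2 fold change being -1.10 ± 0.15 with a limma adjusted p of 0.00545. Of 12 other chromatin architectural proteins limma called 1, also lower, against the same 2.8%, and DESeq2 1 higher and 1 lower. The limma call was Hmga1, which binds AT-rich DNA, with 396, 305 and 332 in 3xTg, against 919, 736 and 1065 in NTG, a log2 fold change of -1.39 ± 0.17 with a limma adjusted p of 0.00277. Without 3xTg replicate 1, the calls over these lists numbered 15, against 2 with all libraries, in a fit that called 10.9% of all tested genes.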

How the data were processed

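Per the labels and methods, cDNA came from SMART-Seq V4 and libraries from Nextera XT. The authors used HISAT2 on GRCm38 (mm10) and featureCounts, whose versions are not given in the sources used here. The deposited signal is the count per gene normalized by the authors with DESeq2. Dividing by 1 factor per library gave whole reads, within 0.01, for 100% of values in each library. The authors' own fold changes and p-values were not used. Filtered genes (mean of 10 or more) were tested by limma 3.58.1 (trend) in R 4.3.3 on log2(normalized count + 1), with Benjamini-Hochberg adjustment at 0.05 and a log2 fold change beyond 0.5. Recovered reads were tested with edgeR 4.0.16 and DESeq2 1.42.0. Alternatives changed the pseudocount, low-level filter, library scaling, fold threshold and weighting, added a replicate block, removed a GC trend, thinned reads or left out 1 library. The fit was tested on simulated data. Positions, exon lengths, stem-loops and unique windows of 100 bases came from GENCODE M21 (55144 of 55471 genes matched), promoters from RefSeq. Unclustered members were named whatever their values, with called members, the highest and most changed per class, and Slbp, Npat, Pcna and Mcm2. Members and lists were chosen with earlier results of these data known. Python 3.11.15, pandas 2.3.3, numpy 2.4.6 and matplotlib 3.10.9 were used.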

Additional observations from a re-analysis of the deposited data

How the results depend on the processing

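Of 31 named members followed under 18 alternatives, 24 kept 1 sign throughout. Signs turned in H1f0 (0.017 with total reads, 0.04 with the GC trend removed), H1f2 (0.007), H2az1 (-0.017), H1f10 (0.198) and H3c6 (0.056), the last 4 with the GC trend removed, and when 1 library was left out in H1f0 (-0.053 to 0.02), H1f3 (-0.35 to 0.26), H2ac6 (-0.10 to 0.32) and H3c6 (-0.33 to 0.14). Sample weights called 2604 genes over the table (1196 higher, 1408 lower), 4 clustered members, with H4c4 (-0.52) and H2ac11 (1.56) besides the first 2, and 1 unclustered member, H2aj (-0.53). DESeq2 called 1333 genes over the table. With the GC trend removed 1 clustered member was called, and the unclustered median was 0.039. With a minimum mean of 50 the medians over the members that met it were -0.18 (clustered) and -0.135 (unclustered). Sample weights gave -0.091 for the unclustered. The ratio of clustered sums was 0.91 with total reads. Leaving out 1 library gave 163 to 2030 calls over the table, 1 to 2 clustered, 0 to 1 unclustered and 2 to 15 over the context lists, with medians of -0.238 to -0.036 (clustered) and -0.053 to 0.006 (unclustered). The cause of these shifts was not tested. Replicate numbers are shared by the groups, but libraries of the same number correlated at 0.06, 0.20 and 0.04 after group means were removed, so that they are not shown to pair. With a replicate block, 752 genes were called over the table, 1 clustered member higher and 1 lower, and no unclustered one, and H2bu2 (adjusted p = 0.00475) and H2bc21 (adjusted p = 0.0339) kept their calls. Reads thinned to the smallest library gave -1.23 for H2bu2 and 0.72 for H2bc21, both called. Members with means under 50 had standard errors of up to 0.61. Differences well above a standard error can be missed in them, as H2bc9 (0.999 ± 0.39) and H2bc22 (-1.19 ± 0.50) were not called.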

Other observations

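Of the tested genes within 100 kb of the called members that are not members, the following were picked after their values were seen. H2aw, an H2A gene of HIST3 beside H2bu2 on chromosome 11 (58954685 to 58956830), had normalized counts of 731, 1092 and 1027 in 3xTg, against 609.7, 625 and 494 in NTG. Every 3xTg library lay above every NTG library, opposite to H2bu2, with a log2 fold change of 0.71 ± 0.18 (SE) and a limma adjusted p of 0.0644, which misses the threshold. Of the same cluster region, the zinc finger gene Zfp39 had a log2 fold change of 0.58 ± 0.16 with a limma adjusted p of 0.0847, also not called. Within 100 kb of H2bc21 in HIST2, the noncoding gene Gm42743 was called lower, with a mean normalized count of 1.06 in 3xTg and 106 in NTG (limma adjusted p = 1.72e-04). All exon bases of the H2B gene H2bc18, which had no assigned reads, overlap Gm42743 or Gm20628. The antisense gene Gm20632 was lower without overlap of the groups, with a log2 fold change of -0.73 ± 0.17. Its limma adjusted p of 0.0545 misses the threshold. No other tested gene within 100 kb of either called member was called. The histone genes Macroh2a1, Macroh2a2 and Cenpa, which the symbol rule left out, had log2 fold changes of 0.14, 0.11 and 0.13, none of them called. The histone pseudogene H2af-ps2, also outside the rule and looked at after its values were seen, was called lower, with normalized counts of 0.942, 2.25 and 4.46 in 3xTg, against 832, 843 and 1035 in NTG (limma adjusted p = 4.88e-06).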
